A study of Homo sapiens with 3 samples.

Results

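The genes described here are 9 that are commonly read out as targets of NRF2, the transcription factor of the cell's defence against oxidants and electrophiles: GCLC and GCLM, the subunits of the enzyme that starts glutathione synthesis; SLC7A11, the cystine importer; GPX2, a glutathione peroxidase of the gut lining; TXNRD1 and SRXN1, which keep thioredoxin and peroxiredoxins reduced; HMOX1, which breaks down haem; NQO1, a quinone reductase; and AKR1C1, an aldo-keto reductase. They form a list of gene names, and every gene probe that the scanner files name for them was taken. They are 9 of 18615 genes that could be named on the array, and their 16 probes are among 41000.

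Gene expression was measured in YB5 cells, a clone of the SW48 colon cancer line with 1 integrated GFP reporter whose CMV promoter is methylated at CpG sites and silent. Decitabine, a deoxycytidine analog that traps DNA methyltransferases, was given at 25 nM. Carboplatin, a platinum compound that crosslinks DNA, was given at 20 µM by the sample labels. The third set of cells received both drugs at these doses. All doses fell on days 1 to 4, control cells received the diluent DMSO, and cells were harvested on day 6. Each of 3 dual-colour Agilent arrays, all on 1 slide, compared RNA of treated cells (Cy3, green) with RNA of control cells (Cy5, red). These are called the decitabine-labelled, carboplatin-labelled and combination arrays here. All groups therefore share 1 cell clone and its reporter. There was 1 array per treatment and the dyes were never exchanged, so no test was possible, no p-value is given, and a probe's preference for a dye is part of every change. The sources used here do not say if a single control extract was split over the 3 arrays.

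As background, NRF2 (encoded by NFE2L2) is held in the cytoplasm by KEAP1, which hands it to the CUL3 ubiquitin ligase for destruction. Oxidants and electrophiles modify KEAP1, NRF2 then accumulates, pairs with a small MAF protein in the nucleus and binds antioxidant response elements, where BACH1 can compete with it. Glutathione is made from glutamate, cysteine and glycine. The ligase of GCLC and GCLM sets its rate, and SLC7A11 supplies cystine, the oxidised form of cysteine. Glutathione can bind platinum drugs and is known for its part in the resistance of tumour cells to them. HMOX1 also answers to haem through BACH1, and SLC7A11 is also a target of ATF4 and is repressed by p53, so these genes do not read NRF2 alone.

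A change is given as the log2 ratio of treated over control signal, after background correction and loess normalization within the array. A gene is said to have risen or fallen on an array when that ratio reached 1.5-fold (0.58 on the log2 scale), which is a size and not a test. A gene with several probes is represented by its brightest one, in counts too. Another probe of a gene can thus pass the mark where the gene is not counted. The measure of error is the pooled SD of repeated spots of 264 probes that were each spotted 10 times, leaving out the first 9 columns of spots. It was 0.08 log2 units on the decitabine-labelled array, 0.07 on the carboplatin-labelled array and 0.08 on the combination array. It covers repeat error within an array and not the spread between cultures.

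Some facts of the whole series bear on what follows. A list of genes that the study gives as lowered by carboplatin alone, chosen on these arrays, served as a check of the labels. Of its 53 genes, 40 fell on the decitabine-labelled array, 4 on the carboplatin-labelled array and 37 on the combination array. The single-drug arrays thus go against their labels by this list. They are named here by their labels, none was reassigned, and no drug is credited with a change seen on a single-drug array. Spots in the first 9 columns read a median change of 0.75 on the decitabine-labelled array, against -0.02 for the other spots, while on the carboplatin-labelled array (-0.03) and the combination array (0.01) these columns did not stand apart in the same way. None of the 16 probes lies in these columns. Between 65.8 and 70.3 % of spots were well above background in a channel. Of 12 colon epithelium markers, 8 were well above background in the control channel of every array (CDX2, VIL1, CDH1, CDH17, EPCAM, KRT8, KRT18 and KRT19), while CDX1 and GPA33 were not on any. Of markers of other cell types, 2 of 6 for fibroblasts (COL1A1 and THY1), 3 of 6 for leukocytes (CD3E, CD14 and CD68) and 1 of 4 for endothelium (VWF) were well above background in every control channel. COL1A2, DCN, LUM and PDGFRB, PTPRC and LCP1, and PECAM1, CDH5 and KDR were so in none.

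Across the 9 genes, HMOX1 and SRXN1 rose on the decitabine-labelled and combination arrays, and SLC7A11 fell on both of these arrays. On the carboplatin-labelled array, GPX2 alone rose and none fell. On the decitabine-labelled array, 2 of 9 rose, beside 10.6 % of all genes (5.16 % without the first 9 columns), and 1 fell, beside 4.67 % (4.98 %). On the carboplatin-labelled array, 1 rose, beside 2.76 % of all genes (2.72 % without these columns), and 0 fell, beside 1.49 % (1.44 %). On the combination array, 2 rose, beside 7.47 % of all genes (7.39 % without these columns), and 1 fell, beside 5.93 % (5.9 %). The split of rises and falls depends on the scaling: with median centring in place of loess, 1 and 2 of the 9 rose and fell on the decitabine-labelled array and 1 and 2 on the combination array, and over all genes 1714 rose and 4478 fell on the first of these, against 1971 and 870 with loess. The median change of the 9 genes was 0.21, -0.02 and 0.53 on the decitabine-labelled, carboplatin-labelled and combination arrays, beside 0.01, -0.01 and 0.00 for all genes. AKR1C1 is in these medians, although all 4 of its probes were at background.

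**Figure D1:**
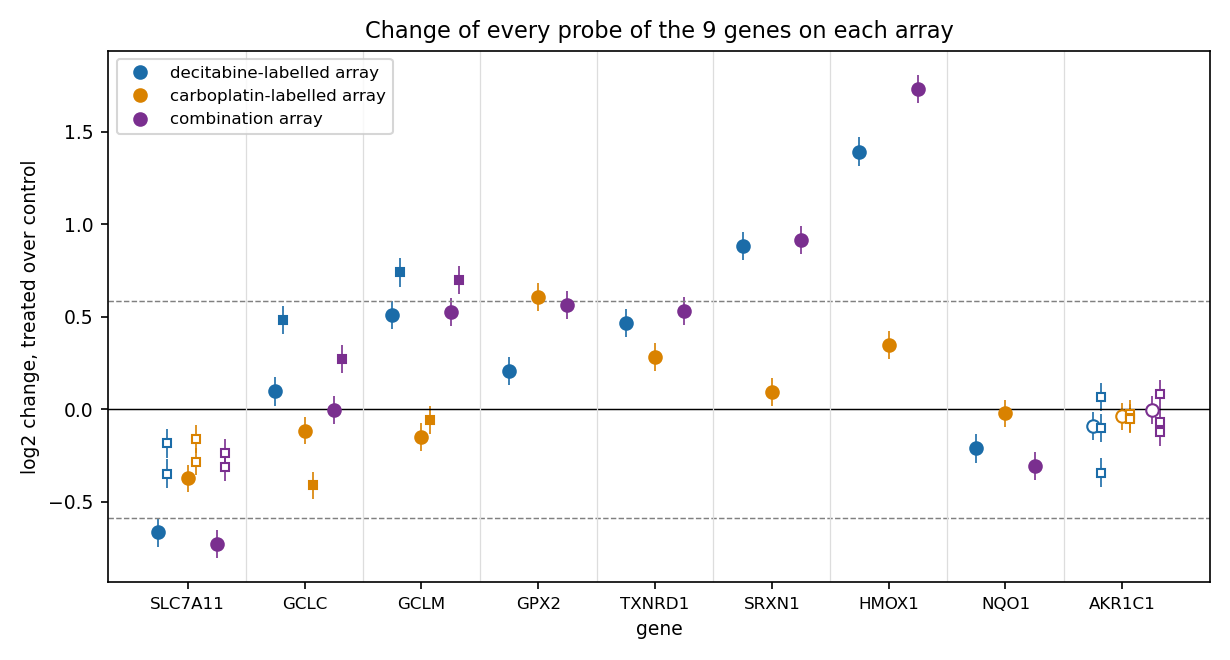
Log2 change of treated over control (vertical axis) for every probe of the 9 genes (horizontal axis) on each of 3 arrays. Circles are the brightest probe of a gene and squares its other probes, hollow symbols were not well above background in at least 1 channel, bars are the pooled SD of repeated spots, and dashed lines mark 1.5-fold. HMOX1 lies highest on the decitabine-labelled array (1.39) and on the combination array (1.73), and SLC7A11 lowest (-0.66 and -0.73).

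The control channel of these genes moved little between arrays. The SD of the control level over the 3 arrays was between 0.04 (HMOX1) and 0.14 log2 units (TXNRD1), and the largest difference between any pair of control channels was 0.28, for TXNRD1. The differences between arrays for HMOX1, SRXN1 and GCLM are therefore mostly differences of the treated channel, as the plot of channel levels shows.

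**Figure D2:**
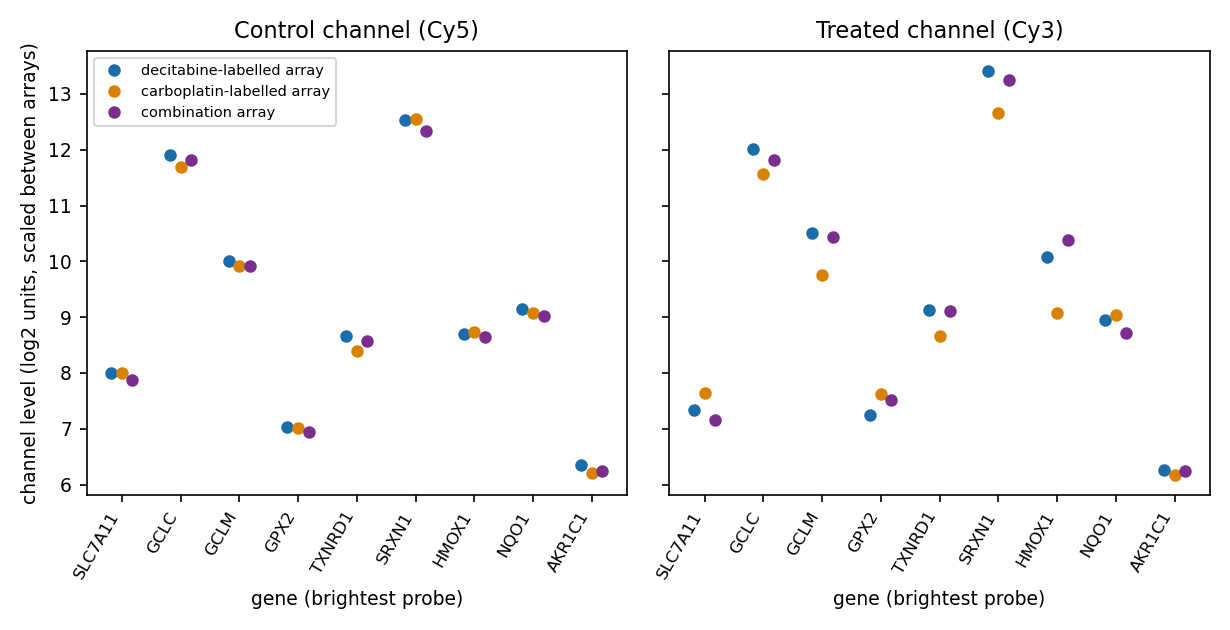
Control channel level (left) and treated channel level (right), in log2 units scaled between arrays, of the brightest probe of each gene on the 3 arrays; each point is 1 array, with no error bar. The 3 points of a gene lie within 0.28 of each other in the control panel, while in the treated panel HMOX1 runs from 9.08 to 10.4; levels of different genes cannot be compared, since probes differ in brightness.

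HMOX1, haem oxygenase 1, cuts haem into biliverdin, iron and carbon monoxide and is among the most inducible stress genes known. It had the largest change of the 9 genes on the decitabine-labelled and combination arrays, and its probe is the only one of the 16 that was spotted 10 times. The probe lies on the plus strand at chr22:35790122-35790181 (GRCh37, the build of the scanner files) and its first 30 bases, shown because the clearest change of the group rests on this probe, are these.
HMOX1: tggggagggaggtgtttaacggcactgtgg
The mean treated signal was 762 units on the decitabine-labelled array, 378 on the carboplatin-labelled array and 944 on the combination array, while the control signal was 615, 632 and 537. The treated signal was thus highest with both drugs and lowest on the carboplatin-labelled array, and the control signal stayed in a narrow range. Since the green channel was dimmer over all spots, the normalized change is larger than the ratio of these signals. It was 1.39 ± 0.04 (SD of 10 spots), 0.35 ± 0.04 and 1.73 ± 0.08 on the 3 arrays in that order, or 2.62-fold, 1.27-fold and 3.32-fold. The 10 spots ran from 1.34 to 1.47, from 0.29 to 0.41 and from 1.64 to 1.89, so that the spots of no array overlapped with those of another. HMOX1 stood at percentile 96.6, 90.8 and 99.3 of all genes on these arrays. It stayed above 1.5-fold on the decitabine-labelled array (0.96 to 1.55) and on the combination array (1.39 to 1.92) in all 10 alternative ways of processing that give a value.

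**Figure D3:**
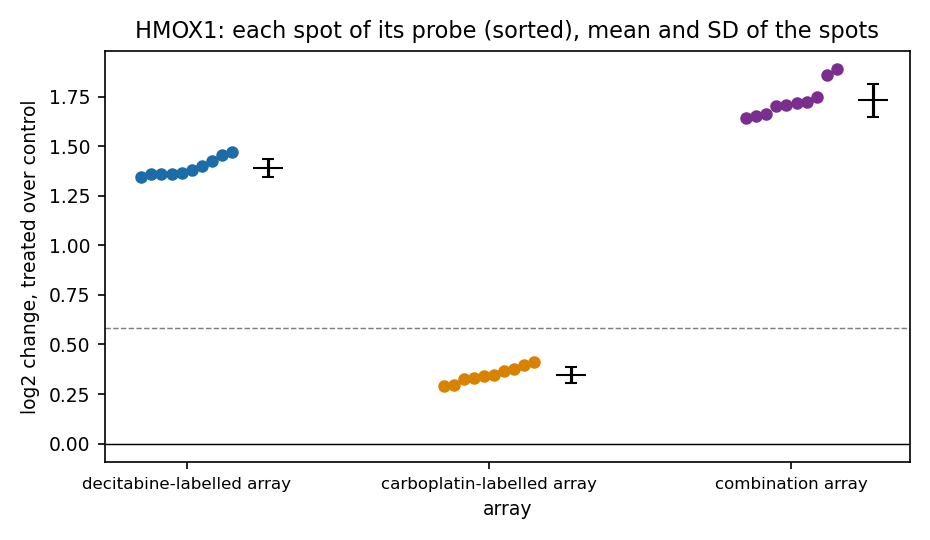
Log2 change of each of the 10 spots of the HMOX1 probe (vertical axis), sorted, on each of 3 arrays (horizontal axis), with the mean and SD of the spots at the right of each set and a dashed line at 1.5-fold. The 3 sets of spots do not overlap, and only the set of the carboplatin-labelled array lies under the line.

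The 3 genes nearest to HMOX1 in their changes over the 3 arrays, among 13575 genes well above background, were TNNI3 (1.42, 0.32 and 1.79), CIMIP2C (1.36, 0.40 and 1.69) and RHOC (1.22, 0.37 and 1.74). Their distances from HMOX1 were 0.07, 0.08 and 0.17 log2 units. With 3 values per gene, such likeness is a description only.

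GCLC and GCLM form glutamate-cysteine ligase, GCLC as the catalytic and GCLM as the modifier subunit. Each has 2 probes, and all 4 were well above background in both channels on every array. For GCLM, the brighter probe (chr1:94351254-94351313, minus strand) changed by 0.51 on the decitabine-labelled array, -0.15 on the carboplatin-labelled array and 0.53 on the combination array. Its other probe (chr1:94354534-94354593) gave 0.74, -0.06 and 0.70. Both probes of GCLM were thus higher in treated cells on the same pair of arrays and near 0 or below on the carboplatin-labelled array, with the 1.5-fold mark between them. GCLM counts as not risen by its brighter probe and as risen on both of these arrays by the mean over its probes (0.62 and 0.61).

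GCLC stayed closer to 0. Its brighter probe (chr6:53362197-53362256, minus strand) changed by 0.10, -0.11 and -0.00 on the decitabine-labelled, carboplatin-labelled and combination arrays. The other probe (chr6:53363437-53363500) gave 0.48, -0.41 and 0.27. The GCLC probes differed from each other by more than the repeat error on all 3 arrays, and neither reached 1.5-fold on any. GSS, glutathione synthetase, which adds glycine in the next step, rose on the decitabine-labelled array (0.63) and on the combination array (0.70) and read 0.22 on the carboplatin-labelled array. With median centring in place of loess, GSS read 0.07 and 0.22 on the first pair of arrays, and in the authors' table it stayed under 1.5-fold on both as well.

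SLC7A11, the light chain of the cystine and glutamate exchanger, was the only one of the 9 genes that fell. Of its 3 probes, 1 was bright enough for a ratio. The first 30 bases of each are printed because the call depends on which of them is read.
SLC7A11, chr4:139088834-139088893, minus strand: cattttgctttcctaaccattcagtcagga
SLC7A11, chr4:139086557-139086616, minus strand: ttactgatactaaatgttggctacctgtga
SLC7A11, chr4:139092107-139092166, minus strand: tgtaatcatatctacatgcaatgttagtaa
The first of these had a treated signal of 113, 148 and 110 units on the decitabine-labelled, carboplatin-labelled and combination arrays, and a control signal of 354, 355 and 297. Its change was -0.66, -0.37 and -0.73, or 1.59-fold, 1.30-fold and 1.66-fold lower in treated cells. All 3 arrays had less signal in treated cells, and only the carboplatin-labelled array stayed within 1.5-fold. The second probe was not well above background in the treated channel, so that its value is a limit: at least 1.27-fold, 1.12-fold and 1.24-fold lower. The third probe was not well above background in either channel of any array and gives no fold. The mean over the 3 probes was -0.40 on the decitabine-labelled array and -0.43 on the combination array and ended the call, while the brightest probe fell on both of these arrays under the 9 other alternatives. The deepest values of that probe, -1.07 and -1.23 on these arrays, came from the scanner software's own signals and ratios.

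SRXN1, sulfiredoxin, repairs peroxiredoxins that peroxide has overoxidised. It has 1 probe (chr20:627563-627622, minus strand). Its treated signal was 7413 units on the decitabine-labelled array, 4174 on the carboplatin-labelled array and 6577 on the combination array, against control signals of 9254, 9418 and 7231. The change was 0.88, 0.10 and 0.91, or 1.84-fold, 1.07-fold and 1.88-fold. The decitabine-labelled and combination arrays differed by 0.03, which is within the repeat error, and both stood far above the carboplatin-labelled array. With median centring, these rises were 0.31 and 0.43 and no longer reached 1.5-fold, and the value on the carboplatin-labelled array turned to -0.41.

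TXNRD1, thioredoxin reductase 1, passes electrons from NADPH to thioredoxin. Its probe (chr12:104742633-104742692, plus strand) had treated signals of 388, 286 and 399 units and control signals of 590, 481 and 498 on the decitabine-labelled, carboplatin-labelled and combination arrays. It changed by 0.47, 0.28 and 0.53, above 0 on all 3 arrays and under 1.5-fold on each. It passed 1.5-fold on the combination array in 3 of 10 alternatives (up to 0.64) and on the decitabine-labelled array in 1, the authors' table (0.60). TXNRD1 is the one of these genes whose 3 values lie closest together among those above 0 throughout, with a range of 0.25.

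GPX2, the glutathione peroxidase of the intestinal epithelium, was the only one of the 9 that rose on the carboplatin-labelled array. It is dim, and its probe (chr14:65406396-65406455, minus strand) is printed whole because a call near the threshold rests on it.
GPX2: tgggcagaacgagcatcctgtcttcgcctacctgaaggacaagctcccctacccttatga
The treated signal was 111, 145 and 142 units on the decitabine-labelled, carboplatin-labelled and combination arrays, above a local background of 52, 51.5 and 54 units, and the control signal was 168, 176 and 152. The change was 0.21, 0.61 and 0.57, or 1.15-fold, 1.52-fold and 1.48-fold. The carboplatin-labelled and combination arrays lie on either side of the threshold but differ by 0.04, which is within the repeat error, and both stand apart from the decitabine-labelled array. GPX2 is thus the one gene of the group that was more raised on the carboplatin-labelled array than on the decitabine-labelled array. Without background correction its change on the carboplatin-labelled array was 0.58, just under the mark, and on the combination array it passed the mark in 4 of 10 alternatives. With the scanner software's own signals or ratios it read 1.02 on the carboplatin-labelled array and 1.01 on the combination array.

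NQO1 reduces quinones in a way that avoids radical intermediates and is often taken as the standard readout of NRF2. Its probe (chr16:69744274-69744333, minus strand) had treated signals of 342, 367 and 302 units and control signals of 830, 791.5 and 688 on the decitabine-labelled, carboplatin-labelled and combination arrays. It changed by -0.21, -0.02 and -0.31 and so was at or under 0 on every array, in contrast to HMOX1 and SRXN1 on the decitabine-labelled and combination arrays. With median centring NQO1 read -0.61 and -0.59 on that pair of arrays, past the mark.

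AKR1C1 reduces steroids and reactive carbonyls, and its gene lies in a cluster with the close relatives AKR1C2, AKR1C3 and AKR1C4. None of its 4 probes was well above background in either channel of any array, so that no fold is given. Treated signals of these probes ran from 55.7 to 66.7 units with local backgrounds of 52 to 61, and control signals from 72.5 to 91.1 with local backgrounds of 61 to 75, so that some lay at or under their background. The files list accessions of both AKR1C1 and AKR1C2 for 3 of the 4 probes, and AKR1C2 has no probe of its own here, so these probes do not tell the 2 genes apart. Of the sequences printed here to show what was read, the first and second list both genes, and the third has no RefSeq accession in the files and lies below the others on the chromosome.
AKR1C1, chr10:5005636-5005695, plus strand: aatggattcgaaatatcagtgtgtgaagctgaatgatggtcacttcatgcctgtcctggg
AKR1C1, chr10:5018064-5018123, plus strand: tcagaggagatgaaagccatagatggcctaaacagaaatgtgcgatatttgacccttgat
AKR1C1, chr10:4995037-4995096, plus strand: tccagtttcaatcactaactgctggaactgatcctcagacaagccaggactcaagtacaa
AKR1C3, which makes androgens and prostaglandins by reduction, was well above background and fell on the decitabine-labelled array (-1.27) and on the combination array (-1.40), against -0.04 on the carboplatin-labelled array. AKR1C4 was not well above background in either channel.

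The order of the 8 genes above background was alike at its ends on the decitabine-labelled and combination arrays, with HMOX1 first, SRXN1 next, NQO1 next to last and SLC7A11 last. The SD of a difference between 2 single spots was 0.11 log2 units on each array. On the decitabine-labelled array, GCLM and TXNRD1 were closer to each other than this, as were GPX2 and GCLC. On the combination array, GPX2, TXNRD1 and GCLM followed each other within 0.04. On the carboplatin-labelled array, GPX2 came first and SLC7A11 last, and of the 6 genes between them HMOX1 and TXNRD1 were within this error, as were NQO1, GCLC and GCLM each to the next.

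For each gene, the log2 change of the combination array was compared with the 2 single-drug changes added up, which asks whether the combination gives more than the drugs add up to and holds whichever way those arrays are labelled. For HMOX1 the sum was 1.74 and the change with both drugs 1.73, a difference of -0.01. SRXN1 differed from its sum by -0.06 and GCLC by 0.01. The widest differences were 0.31 for SLC7A11, whose fall with both drugs (-0.73) was smaller than the sum (-1.04), and -0.25 for GPX2, whose value with both drugs (0.57) was under the sum (0.81). Of the 8 genes above background none differed from its sum by 1.5-fold, and 1, SLC7A11, did so by more than 2 times 0.13, the SD that repeated spots give such a difference. That SD does not cover a probe's preference for a dye. The dyes were never exchanged, so such a preference is part of the combination change and of each single-drug change. It does not cancel in the difference, and its share in the value of SLC7A11 was not tested. That value also rests on 1 spot per array, with dim treated signals of 113, 148 and 110 units. The offset of the background correction makes changes of dim probes smaller, and the SD does not cover this. The difference of SLC7A11 was 0.33 without background correction and 0.33 by the scanner software's ratios. The part of dimness in it was not tested. The difference from the sum also rests on the loess normalization. With median centring it was 0.36 for HMOX1, 0.52 for SRXN1, 0.58 for GCLC, 0.51 for SLC7A11 and 0.64 for GCLM, the last of these past 1.5-fold. Median centring also lowered SRXN1 itself, from 0.88, 0.10 and 0.91 on the decitabine-labelled, carboplatin-labelled and combination arrays to 0.31, -0.41 and 0.43. A downward shift shared by the arrays raises the difference by arithmetic alone. The values with median centring are therefore not read as more than the drugs add up to.

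Set against single arrays, HMOX1 with both drugs was 0.34 above the decitabine-labelled array and 1.38 above the carboplatin-labelled array. SRXN1 was 0.03 and 0.82 above them, and GCLM 0.02 and 0.68. GPX2 ran the other way, 0.36 above the decitabine-labelled array and -0.04 from the carboplatin-labelled array. SLC7A11 was -0.06 and -0.35 from them. HMOX1 and GPX2 are thus the genes of the group in which the combination array exceeded the decitabine-labelled array by more than 0.3.

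Promoter sequence was available from RefSeq (GRCh38.p14, 250 bases before to 50 after the start) for 7 of the 9 genes, in 8 windows; HMOX1 and SLC7A11 have no entry in that table. The core of the antioxidant response element, TGACNNNGC on either strand, was found in windows of 3 genes, GCLM, TXNRD1 and GPX2, while 13.3 % of 35116 promoter windows of the same length hold it. Sequence outside the windows was not searched, so GCLC, NQO1, SRXN1 and AKR1C1 are not shown to lack this core. The AP-1 site (TGACTCA or TGAGTCA), which can overlap that core, was in none of the 8 windows and in 4.95 % of all. The matches are printed with 22 bases on each side and the core in capitals, read in the direction of the gene, because antioxidant response elements are where NRF2 binds. A match is a run of letters and not a shown binding site. GPX2, TXNRD1 and GCLM, the genes with a match, read 0.61, 0.28 and -0.15 on the carboplatin-labelled array. In the same order they read 0.21, 0.47 and 0.51 on the decitabine-labelled array and 0.57, 0.53 and 0.53 on the combination array. The part of these matches in the changes was not tested.
GCLM, chr1:93909434-93909486, minus strand, core on the opposite strand: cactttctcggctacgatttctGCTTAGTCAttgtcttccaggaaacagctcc
TXNRD1, chr12:104215658-104215710, plus strand: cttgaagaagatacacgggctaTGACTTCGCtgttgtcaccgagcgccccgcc
TXNRD1, later start, chr12:104286908-104286960, plus strand, core on the opposite strand: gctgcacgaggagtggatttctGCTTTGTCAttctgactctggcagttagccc
GPX2, chr14:64942837-64942889, minus strand, core on the opposite strand: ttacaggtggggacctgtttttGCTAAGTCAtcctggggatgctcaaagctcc
The core begins 34 bases before the start in GCLM, 99 and 102 in these TXNRD1 windows and 122 in GPX2. A further match of TXNRD1, 8 bases before its first start, is not printed.

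The regulators of the pathway were read from 8 genes. On the decitabine-labelled array 3 rose and 0 fell, beside 10.6 and 4.67 % of all genes. On the carboplatin-labelled array 0 rose and 1 fell, beside 2.76 and 1.49 %. On the combination array 3 rose and 0 fell, beside 7.47 and 5.93 %. NFE2L2, which encodes NRF2 itself, was lower on each array, at -0.42, -0.69 and -0.53, and fell past 1.5-fold on the carboplatin-labelled array. KEAP1, its inhibitor, read 0.38, 0.54 and 0.40, and BACH1, its competitor at DNA, -0.26, -0.54 and -0.39. The other probe of BACH1 gave -0.08, -0.17 and -0.15. Neither KEAP1 nor BACH1 reached 1.5-fold on any array. These readings depend on the scaling: with median centring NFE2L2 was -0.97, -1.19 and -0.995 and BACH1 -0.78, -0.99 and -0.82, past 1.5-fold on all 3 arrays, while KEAP1 was -0.18, 0.04 and -0.07.

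The small MAF proteins are the DNA-binding partners of NRF2. MAFF rose on the decitabine-labelled array (1.09) and the combination array (0.97) and read 0.18 on the carboplatin-labelled array. MAFK changed by 0.65, 0.34 and 0.79, while its other probe gave 0.11, 0.18 and 0.33, and the mean over both ended its calls. MAFG changed by 0.31, 0.04 and 0.42. The other probe of MAFG lies in the first 9 columns and is not used. SQSTM1, the p62 adaptor that draws KEAP1 into autophagy, changed by 0.69, 0.45 and 1.02, while its other probe gave -0.08, -0.06 and 0.04. With median centring the rises of MAFK and SQSTM1 fell short of 1.5-fold, at 0.12 and 0.09 on the decitabine-labelled array and at 0.35 and 0.48 on the combination array.

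Other genes of glutathione, NADPH and redox pathways were read as 12 lists with those regulators, 100 genes in all. Of these, 23 rose on the decitabine-labelled array, 7 on the carboplatin-labelled array and 20 on the combination array, beside 10.6, 2.76 and 7.47 % of all genes. On the same arrays 4, 2 and 7 fell, near the 4.67, 1.49 and 5.93 % of all genes. The counts of single lists below stand beside these same shares. The median change of the 100 genes was 0.15, 0.03 and 0.11. Without the first 9 columns, 18 of 93 rose on the decitabine-labelled array (19.4 %, beside 5.16 % of all genes) and 18 on the combination array (19.4 %, beside 7.39 %). The p53 targets make up 7 of the 23 and 7 of the 20 rises, and 6 of the 18 on either array without the first 9 columns.

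**Figure D4:**
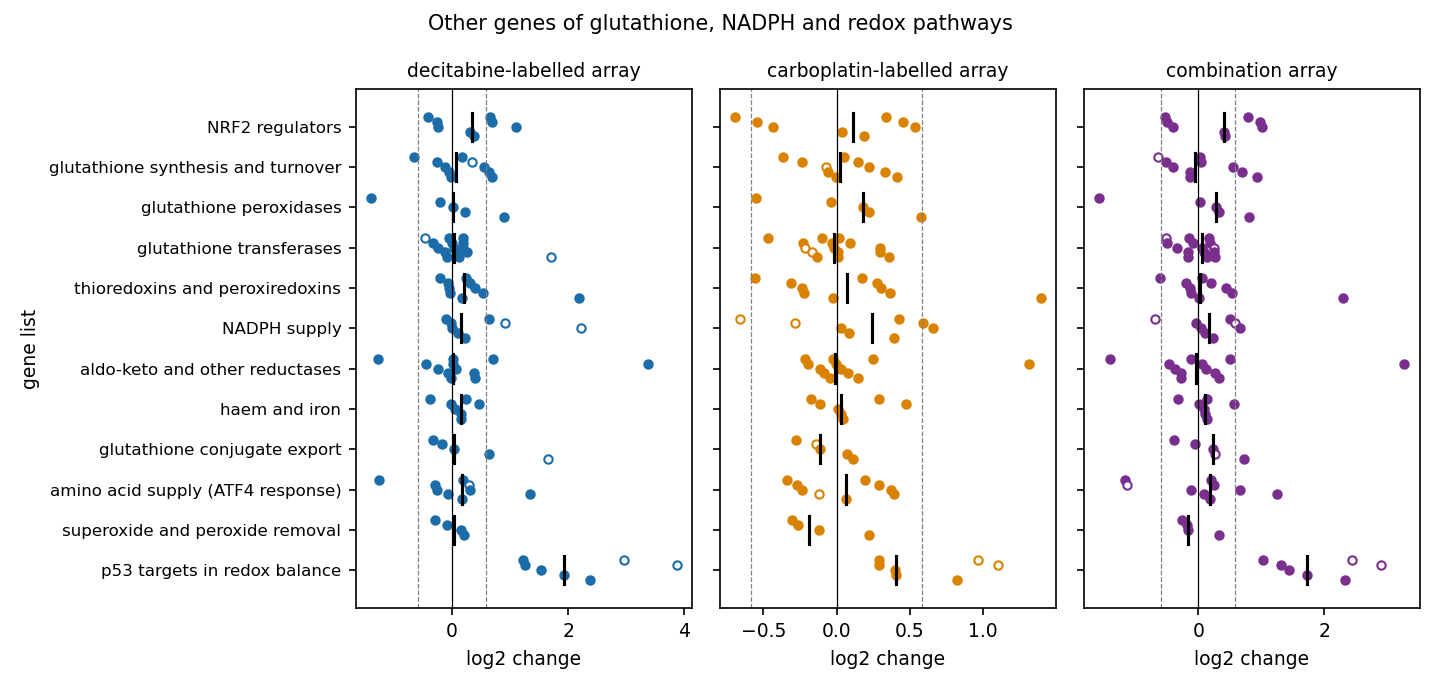
Log2 change (horizontal axis) of each gene of 12 lists (vertical axis) on 3 arrays, 1 panel per array with its own scale; points are genes, hollow points have spots in the first 9 columns, black bars are list medians and dashed lines mark 1.5-fold. The p53 targets have the highest list median in each panel (1.94, 0.40 and 1.73), where the next highest is 0.34, 0.24 and 0.41.

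In glutathione turnover, 2 of 10 genes rose and 1 fell on the decitabine-labelled array, 0 and 0 did so on the carboplatin-labelled array, and 2 rose and 1 fell on the combination array. OPLAH, which returns 5-oxoproline to glutamate, changed by 0.69, 0.33 and 0.94. Its rise on the decitabine-labelled array held in 6 of 10 alternatives, and with median centring it read 0.13 there and 0.45 on the combination array. SLC1A4, a transporter of neutral amino acids, changed by -0.66, -0.01 and -0.52. CHAC1, which degrades glutathione, read 0.35, -0.07 and -0.64, and its probe lies in the first 9 columns.

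Of 5 glutathione peroxidases other than GPX2, 1 rose and 1 fell on the decitabine-labelled and combination arrays, and none did on the carboplatin-labelled array. GPX8, an enzyme of the endoplasmic reticulum, fell on the same pair of arrays, at -1.39 and -1.58, and read -0.55 on the carboplatin-labelled array; its 3 probes had the same sign on every array. GPX1, the main cytosolic peroxidase, read 0.90, 0.22 and 0.81, and only 0.13 and 0.05 on the first and last of these arrays with median centring. Among 15 glutathione transferases, which join glutathione to electrophiles, 1 rose on the decitabine-labelled array. This was GSTO2 (1.70, against -0.17 and 0.25), whose probe lies in the first 9 columns, and without these columns 0 of 14 rose or fell on any array.

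TXNIP, the inhibitor of thioredoxin, rose on all 3 arrays, at 2.18, 1.39 and 2.30. By their brightest probes it was the only one of 10 thioredoxin and peroxiredoxin genes to rise on any. The other probe of TXNRD2 read 0.53, 0.48 and 0.87. That of PRDX2 read 1.72, 0.17 and -0.00, and its column is not given here, so the 1.72 is not read as a rise. PRDX3, the mitochondrial peroxiredoxin, read -0.04, -0.56 and -0.61, the last of these -0.40 as the mean over its probes. In NADPH supply, the brightest of 3 ME1 probes (2.23, -0.28 and 0.59) and the IDH1 probe (0.91, -0.66 and -0.68) lie in the first 9 columns. The ME1 probes ran from -0.08 to 2.23, from -0.28 to -0.11 and from 0.06 to 0.74 on the 3 arrays. Of the 6 other genes of this list, TKT of the pentose phosphate pathway read 0.63, 0.42 and 0.66. IDH2, the mitochondrial isocitrate dehydrogenase, read 0.10, 0.65 and 0.24. With median centring TKT turned to -0.10 and -0.06 on the decitabine-labelled and combination arrays, and IDH2 read 0.18 on the carboplatin-labelled array, where the authors' table also left it under 1.5-fold.

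ALDH3A1, an aldehyde dehydrogenase that is also a target of the aryl hydrocarbon receptor, had the largest rise among the aldo-keto and other reductases, at 3.38, 1.31 and 3.28. AKR1B10 read 0.71, 0.25 and 0.50, with its control channel not well above background on any array. None of 7 haem and iron genes, the ferritins and biliverdin reductases among them, rose or fell by its brightest probe on any array. Other probes reached 1.82 for FTH1 and 1.55 for HMOX2 on the decitabine-labelled array, where the first 9 columns read high. On the combination array the highest probe read 0.33 for FTH1 and 0.39 for HMOX2. The columns of these other probes are not given here, so their values are not read as rises. HMOX1 rose on the decitabine-labelled and combination arrays. Of 5 exporters of glutathione conjugates, ABCC1 read 0.63, 0.11 and 0.73 (0.16 and 0.34 on the first and last of these with median centring). ABCC5 (1.65, -0.14 and 0.27) has the brightest of its 3 probes in the first 9 columns. Its probes ran from 0.38 to 1.65 on the decitabine-labelled array.

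SLC7A11 belongs to the amino acid supply genes that ATF4 drives as well. Among 9 others of this kind, ASNS, asparagine synthetase, fell on the decitabine-labelled array (-1.26) and the combination array (-1.16) and read -0.27 on the carboplatin-labelled array. SESN2, a sestrin that p53 also drives, went up on that pair of arrays (1.34 and 1.25) and read 0.37 on the carboplatin-labelled array. SLC7A5, an importer of large neutral amino acids, read -0.26, 0.39 and 0.66, the last of these 0.19 with median centring. The other probe of SLC7A5 gave 0.42, 0.47 and 1.21. PHGDH, of serine synthesis, read 0.29, -0.12 and -1.13 with its probe in the first 9 columns. By their brightest probes, none of 4 genes of superoxide and peroxide removal rose or fell. For SOD2 the other probe gave 0.69 on the combination array, where the brightest gave 0.33.

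All 7 p53 targets in redox balance rose on the decitabine-labelled and combination arrays, and 3 did on the carboplatin-labelled array. With median centring these 3, FDXR (0.47), CDKN1A (0.46) and TP53INP1 (0.42), no longer reached 1.5-fold there, and CDKN1A read 0.16 in the authors' table. TP53INP1 changed by 2.38, 0.82 and 2.33, and SESN1, a sestrin, by 1.94, 0.40 and 1.73. CDKN1A, the cell cycle inhibitor p21, which also shields NRF2 from KEAP1, read 2.97, 0.96 and 2.91, with some spots of its probe in the first 9 columns. FDXR, the mitochondrial ferredoxin reductase, read 3.87, 1.10 and 2.45 and has its probe in the first 9 columns. HMOX1 and SRXN1 rose on the same pair of arrays as these genes, and SLC7A11 fell there; the part of p53 in these changes was not tested.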

How the data were processed

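RNA of YB5 cells was measured on 3 two-colour Agilent arrays, 1 per treatment, and samples were grouped by their labels. Intensity of each spot comes from the deposited scanner output of Agilent Feature Extraction (version 9.5.3.1 per the file headers, 8.5.1.1 in the submitters' processing notes, which also name R 3.0.2 and limma). The deposited log ratio is the log10 of red over green. The authors' processed values are loess-normalized log2 ratios, a value for each probe on an array. Its background step, spot averaging and direction are not given in the sources used here, and its sign was read as treated over control because it correlates so with the same arrays (0.87, 0.84 and 0.94); its columns have medians of -0.01, 0 and -0.01.

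Mean signals were corrected by normexp (offset 50) against the median local background and normalized by loess with limma 3.58.1 in R 4.3.3, with the packages jsonlite 2.0.0 and data.table (version 1.17.8). The offset makes the changes of dim probes smaller. Outlier spots (276, 111 and 89 of 43376 on the decitabine-labelled, carboplatin-labelled and combination arrays) were left out, and spots of 1 probe were averaged. Channel levels were scaled by Aquantile. Of 41000 probes, 29381 matched a gene by accession or symbol in RefSeq. A limit fold sets the brighter channel against the higher of the dim signal and the lowest signal well above background. The processing was tested on simulated data. Positions are those of the scanner files (GRCh37), and exon or UTR annotation of that build was not used here. Promoters are those of the RefSeq table.

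The members, the lists and the first 9 columns were chosen with earlier results of these data known. All 9 members are named. From other lists, genes past 1.5-fold and well above background were named, at most 4 per list, plus NFE2L2, KEAP1, BACH1, MAFG and relatives of AKR1C1. The number of arrays limits the precision, and the depth of an array is its signal over background. The alternatives were other background, signal, normalization, probe, filter and threshold choices, the scanner software's ratios and the authors' table.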

Additional observations from a re-analysis of the deposited data

How the results depend on the processing

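Values are given in the order of the decitabine-labelled, carboplatin-labelled and combination arrays where all 3 are named. Under 10 alternative ways of processing, HMOX1 stayed past 1.5-fold on the decitabine-labelled and combination arrays in all 10, SRXN1 in 9 (not with median centring) and the fall of SLC7A11 in 9 (not with the mean over its probes). No called change of a member turned its sign.

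With median centring in place of loess, the median of all genes shifted to -0.13, -0.16 and -0.10. The shift was not the same for each gene. On the decitabine-labelled array SRXN1 went from 0.88 to 0.31, GPX2 from 0.21 to 0.15 and AKR1C1 from -0.09 to 0.21. The shift of the median therefore does not correct the value of a single gene. The members' median became 0.086, -0.32 and 0.25, risen members numbered 1 on the decitabine-labelled and 1 on the combination array, and 2, 1 and 2 fell. Risen list genes then numbered 15, 3 and 13 against 23, 7 and 20, and fallen ones 27, 31 and 30 against 4, 2 and 7. Of all genes, 1714, 1674 and 807 rose against 1971, 514 and 1391, and 4478, 3554 and 3985 fell against 870, 278 and 1103.

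With the processed signals or the log ratio of the scanner software, the members' median was 0.47, 0.071 and 0.64 by either, and 2 members rose on the carboplatin-labelled and 5 on the combination array, or 1 and 4 without AKR1C1, which is at background. Fallen list genes numbered 11, 4 and 11 by either. All genes that rose numbered 4465, 1449 and 2397 by the processed signals, and 1449 and 2397 on the last pair of arrays by the log ratio; those that fell numbered 2196, 1142 and 2100 by the processed signals and 2119, 1142 and 2100 by the log ratio.

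The authors' table gave member medians of 0.33, 0.12 and 0.44, 4 risen members on the combination array, 4 fallen list genes on the carboplatin-labelled array, 1175 genes risen on the decitabine-labelled array and 528 fallen on the carboplatin-labelled one. The mean over all probes of a gene gave a member median of 0.29 on the decitabine-labelled array, no fallen member (0) there or on the combination array, and 152 fallen genes on the carboplatin-labelled array. Without background correction, the carboplatin-labelled array had a member median of 0.10 and 0 risen members. The 8 members above background had a median of 0.34 on the decitabine-labelled array. Without the first 9 columns, 868 genes rose on that array, and fallen list genes numbered 1 on the carboplatin-labelled and 4 on the combination array.

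At a ratio of 2, 1, 0 and 1 members rose and 0 fell on the decitabine-labelled and combination arrays, 14, 3 and 11 list genes rose, and 0 fell on the carboplatin-labelled and 4 on the combination array. Of all genes, 1169, 118 and 477 rose and 195, 6 and 256 fell at that ratio. The cause of these differences was not tested.

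Of the other values, 271 moved by less than the repeat error and 85 by more. No paired analysis was possible because each treatment has 1 array. Signal limits GPX2, which is dim, and AKR1C1 and 2 of 3 SLC7A11 probes, which did not clear the background in 1 channel or both.

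Of the list genes named, those with calls that some alternatives ended include IDH1 on the decitabine-labelled array (kept in 5 of 9) and ME1 on the combination array (kept in 6 of 9). IDH1 kept its sign on the decitabine-labelled array in only 6 of 9 and read as low as -0.85, past 1.5-fold in the other direction. In the authors' table ABCC5 no longer passed 1.5-fold on the decitabine-labelled array, CHAC1 on the combination array, IDH1 on any array and SQSTM1 on the decitabine-labelled array, and the mean over its probes ended both calls of SQSTM1.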
